A study of Mus musculus with 26 samples.

Results

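The 7 libraries taken 28 days after coronary ligation carry 2 kinds of sample code, and the comparison here is between those kinds. They are 7 of the 26 libraries of the study. The titles of 4 of them hold the code R60-60 (B4neg, B4pos, B6neg and B6pos, here the R60-60 libraries), and those of 3 hold only a letter and a digit (E2pos, E4neg and F2pos, here the letter-coded libraries). The file names carry the same codes. What the codes stand for is not stated in the labels, so the code family and whatever else differed between these libraries (animals, dates, handling) cannot be told apart.

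All 7 are bulk RNA sequencing libraries of heart stromal cells from C57BL/6 mice (B6.129S4-Pdgfratm11(EGFP)Sor/J) of the genotype PDGFRa H2BEGFP+, in which a nuclear green fluorescent protein is made from the Pdgfra locus and marks the cells that use this gene. The cells were sorted as CD45-, CD31- and reporter positive, in every group alike. Every one of them came from a heart with the left anterior descending (LAD) coronary artery tied 28 days earlier. The suffixes pos and neg give the sort for SCA-1, the surface protein of Ly6a: 2 R60-60 and 2 letter-coded libraries were Sca-1 positive, 2 R60-60 and 1 letter-coded library Sca-1 negative. A second set of 9 libraries from undamaged hearts of the same strain and genotype served for comparison, 5 letter-coded (3 positive, 2 negative) and 4 with the number 67 before the code (2 positive, 2 negative). Ages were not given. No label ties a library to its own animal, so each p measures the spread between these libraries, which may be technical, and the codes B4 and B6 each occur in both gates.

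NF-kB is a family of dimeric transcription factors held in the cytoplasm by IkB proteins. Inflammatory receptors, among them those for TNF, interleukin 1 and microbial products, activate kinases that mark IkB for destruction, and the freed dimers switch on cytokines, chemokines and also the genes of their own inhibitors. Fibroblasts respond to this pathway with Il6 and with chemokines that attract neutrophils and monocytes. Glucose uptake and lactate export are known to rise in many activated cells.

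Promoter sequence is shown for the 3 NF-kB or cytokine genes with the smallest p between the families (Cxcl2, Tnfaip3 and Ptx3). Il6, Nfkbia and Cxcl1 were added after their values were seen. They were not next in order of p: Ccl7, Irf1 and Ccl2, which are not shown, had smaller p. Each line gives the 150 bases just before the RefSeq start site (GRCm38.p6), 5′ to 3′ on the gene's strand, and the capitals mark matches, on either strand, to the general kappa B form (GGG, any 5 bases, CC). The windows are chr5:90903749-90903898 (plus strand) for Cxcl2, chr10:19015411-19015560 (minus) for Tnfaip3 and chr3:66219737-66219886 (plus) for Ptx3. Those of the added genes are chr5:30012964-30013113 (plus) for Il6, chr12:55492648-55492797 (minus) for Nfkbia and chr5:90891095-90891244 (plus) for Cxcl1. Tnfaip3 has 2 RefSeq start sites, and the one farther upstream was used.
Cxcl2: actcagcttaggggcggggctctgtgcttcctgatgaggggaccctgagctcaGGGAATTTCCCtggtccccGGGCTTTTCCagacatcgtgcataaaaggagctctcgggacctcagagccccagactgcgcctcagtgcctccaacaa
Cxcl1: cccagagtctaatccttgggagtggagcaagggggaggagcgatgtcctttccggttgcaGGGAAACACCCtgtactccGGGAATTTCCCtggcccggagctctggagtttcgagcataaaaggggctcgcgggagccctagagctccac
Il6: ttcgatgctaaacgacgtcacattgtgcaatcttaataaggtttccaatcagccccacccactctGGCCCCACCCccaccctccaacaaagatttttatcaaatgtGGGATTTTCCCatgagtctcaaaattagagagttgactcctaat
Nfkbia: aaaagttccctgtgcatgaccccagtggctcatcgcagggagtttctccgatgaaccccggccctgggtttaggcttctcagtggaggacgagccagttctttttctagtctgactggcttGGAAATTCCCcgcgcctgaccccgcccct
Tnfaip3: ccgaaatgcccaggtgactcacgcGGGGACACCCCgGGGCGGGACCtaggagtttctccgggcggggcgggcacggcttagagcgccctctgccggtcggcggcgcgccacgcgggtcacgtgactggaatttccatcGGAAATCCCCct
Ptx3: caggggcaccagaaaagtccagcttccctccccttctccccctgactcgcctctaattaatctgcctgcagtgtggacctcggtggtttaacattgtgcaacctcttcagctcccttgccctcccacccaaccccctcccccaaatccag

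In these windows Cxcl1 and Cxcl2 hold the same GGGAATTTCC, starting at -71 and -97 from the start site, and Il6 holds GGGATTTTCC. Nfkbia has GGAAATTCCC, which reads as a match on the opposite strand. No match lies in the Ptx3 window. A form as loose as this occurs in the 250 bases before the start of 45.4% of all 27025 RefSeq promoters, of 61.9% of the genes tested at day 28 that have a window, and of 69.2% of the NF-kB and cytokine list members called higher. A narrower form (GGGA, any base, TTTCC), searched after the wider one, occurs in 0.344% of all promoters and 0.355% of the genes tested. It occurs in 5 of the 470 genes called higher with a window (1.06%). All 5 are among the 52 list members called higher with a window (9.62%). Cxcl2, Cxcl1, Il6 and Nfkbia are among these 5, so the windows shown are richer in this form than the genes called higher. These lists include known NF-kB targets, and their members not called higher were not counted. A match describes letters, not a bound site.

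The 7 libraries hold 6.79 to 17.6 M counts assigned to genes (M for mega), and 3 counts correspond to 0.171 to 0.442 CPM (counts per M gene counts). Reads outside every gene made up 7.18% to 18.7% of each library except E2pos, where they made up 55.8%. The levels below are CPM with TMM scaling (edgeR's trimmed mean correction of library totals), which compares libraries and not genes of unequal length. Pdgfra lay between 492 and 795 CPM in all 7, and Ptprc, the gene of CD45, between 0 and 1.87 CPM. Pecam1, the gene of CD31, was not absent: it lay at 14.3, 18.6 and 10.5 CPM in E2pos, E4neg and F2pos and at 1.80 to 8.43 CPM in the R60-60 libraries. Ly6a followed the sort in both families, from 286 to 406 CPM in the positive and from 25.8 to 57.0 CPM in the negative libraries.

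With the gate in the model, 622 of 13338 genes were higher and 453 lower in the R60-60 libraries (edgeR quasi-likelihood test, Benjamini-Hochberg adjusted p under 0.05). These are 4.66% and 3.40% of the genes tested, 8.06% together, and they are the background for each count of list members below. The libraries of the families did not overlap for 20.9% of all genes, 11.4% with the R60-60 libraries higher and 9.47% with them lower, and the median log2 difference of all genes was -0.02. A log2 difference is R60-60 minus letter-coded throughout. The value after ± is an approximate standard error, the size of the difference divided by the square root of the test's F statistic. The count is sensitive to the libraries held: leaving out 1 of the 7 gave 446 (without E4neg) to 1397 genes (without E2pos), with 483 without B6pos, 492 without B4pos, 494 without B6neg, 588 without B4neg and 658 without F2pos. The Sca-1 positive libraries alone gave 172 genes (147 higher), and counts summed per code, which leaves 2 against 3 values, gave 144 (132 higher).

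Genes of NF-kB signalling called different between the families were higher in the R60-60 libraries in all lists of the pathway, with 1 exception among its kinases and adaptors. Among the 5 subunits of the transcription factor 3 were called higher and none lower. Rela, the main activating subunit, lay at 204, 175, 179 and 146 CPM in B4neg, B4pos, B6neg and B6pos and at 47.9, 99.7 and 86.7 CPM in E2pos, E4neg and F2pos. The families did not overlap, by 1.10 ± 0.21 (edgeR adjusted p = 0.015), though the adjusted p was 0.0507 without E4neg and 0.0504 without B4pos.
Rel, a subunit best known from lymphocytes, was at 8.78 to 10.5 CPM against 1.09 to 3.72 CPM (1.98 ± 0.37, adjusted p = 0.013). Relb, of the slower branch of the pathway, differed by 0.97 ± 0.19 (adjusted p = 0.0162, and 0.0614 without B6pos). Nfkb1, which encodes the precursor of p50, lay at 179 to 188 CPM in the letter-coded and 182 to 226 CPM in the R60-60 libraries, a difference of 0.11 ± 0.14 (adjusted p = 0.654). Nfkb2 was not called either (0.57 ± 0.24, adjusted p = 0.171).

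Among the inhibitors and feedback regulators 8 of 15 tested were higher, none lower, with a median of 1.08. Nfkbia encodes IkB alpha, which binds NF-kB and is itself induced by it. It lay at 886, 1052, 930 and 1083 CPM in the R60-60 libraries (same order as above) and at 187, 232 and 267 CPM in the letter-coded ones. Every R60-60 library was far above the highest letter-coded one, and the difference was 2.10 ± 0.18 (adjusted p = 0.00021).
Tnfaip3 encodes A20, an enzyme that removes ubiquitin from receptor complexes and ends the signal. Its levels were 378, 334, 410 and 442 CPM against 50.8, 37.8 and 50.3 CPM (3.09 ± 0.19, adjusted p = 4.3e-05). The gap between the families was far wider than the range within either.
Bcl3, a nuclear IkB protein, was at 78.5 to 112 CPM against 3.61 to 12.8 CPM (3.34 ± 0.29, adjusted p = 0.00023). Zc3h12a, a nuclease that degrades cytokine mRNAs, was at 90.9 to 128 CPM against 15.0 to 28.1 CPM (2.13 ± 0.21, adjusted p = 0.00045). Nfkbiz, which encodes a nuclear cofactor for Il6 induction, differed less, by 1.08 ± 0.17 (adjusted p = 0.0062). Families did not overlap for any of these 3 genes.

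Upstream of the inhibitors the picture was mixed. Of 26 kinases and adaptors 5 were higher (Birc3, Myd88, Map3k8, Ripk1 and Bcl10, the last and Ikbke named after their values were seen), 1 was lower (Ikbke), and the median was -0.02, as for all genes. Leaving out 1 library left 5 to 6 of them higher and 0 to 1 lower. Birc3, a ubiquitin ligase of TNF receptor complexes, lay at 144, 95.9, 139 and 126 CPM against 36.8, 37.0 and 31.3 CPM (1.77 ± 0.17, adjusted p = 0.00034). Myd88, the adaptor of interleukin 1 and Toll-like receptors, differed by 1.48 ± 0.17, Map3k8 by 1.71 ± 0.21 and Ripk1 by 1.17 ± 0.17, with adjusted p of 0.00087, 0.0014 and 0.0031.
Among 18 receptors 4 were higher and none lower, with a median of 0.48, and leaving out 1 library gave 2 (without E4neg, B6neg or B6pos) to 6 (without E2pos). The leading ones were Il17ra, the interleukin 17 receptor, at 56.0 to 81.2 CPM against 21.2 to 27.2 CPM (1.39 ± 0.16, adjusted p = 0.0011), and Tnfrsf12a, the receptor for TWEAK (1.75 ± 0.32, adjusted p = 0.0115). Tlr2 and Tnfrsf1a were the others, with adjusted p of 0.0261 and 0.0491, and both calls depended on single libraries: that of Tlr2 was lost without E4neg, F2pos, B6neg or B6pos (adjusted p up to 0.0931), and that of Tnfrsf1a without E4neg or any 1 R60-60 library (up to 0.14) and with the code as a block (0.0502). Il1r1, the interleukin 1 receptor, was not called (0.49 ± 0.18, adjusted p = 0.128).

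**Figure D1:**
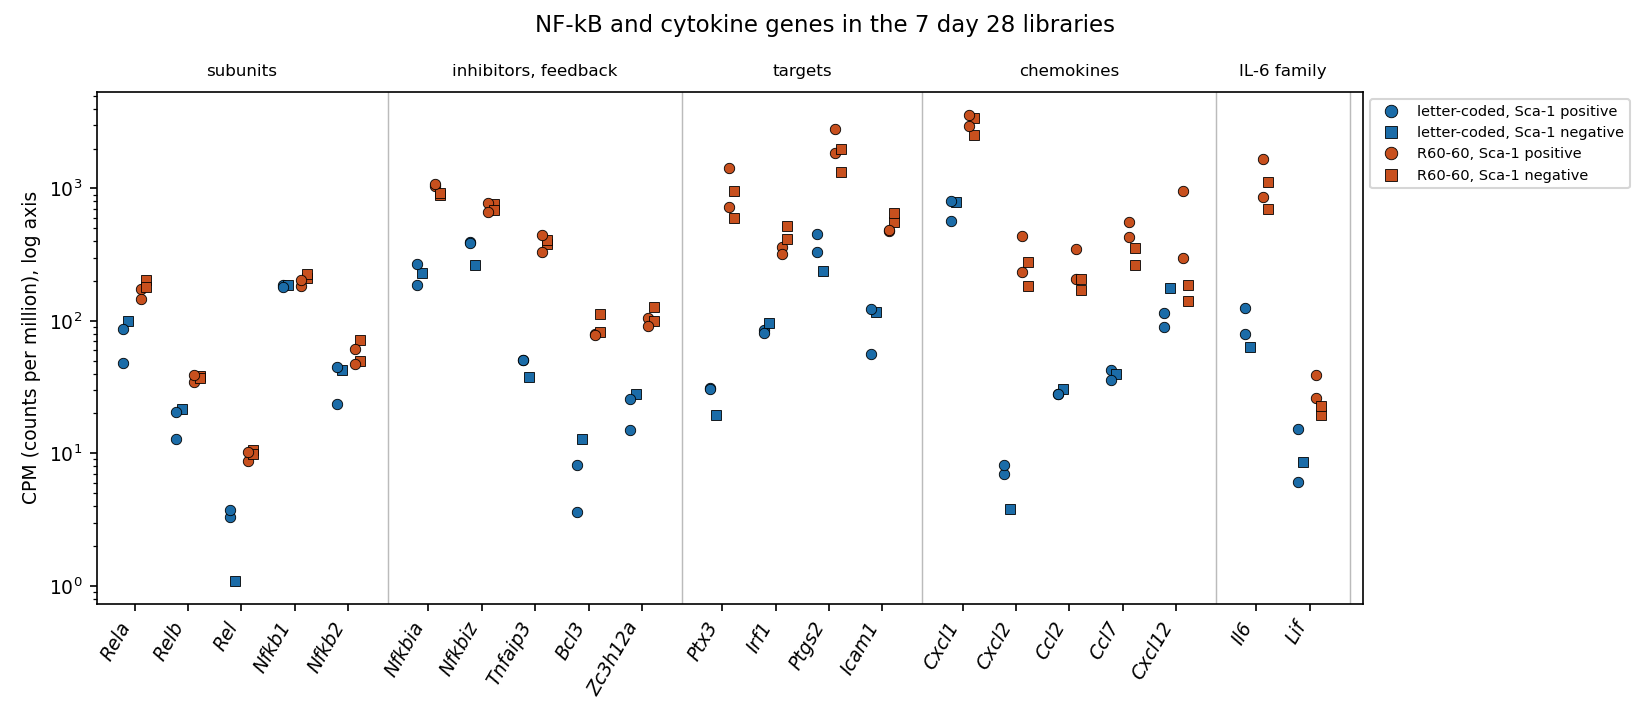
Level of 21 NF-kB and cytokine genes in each of the 7 day 28 libraries, in CPM on a log axis; each point is 1 library, blue for letter-coded and orange for R60-60, circles for Sca-1 positive and squares for Sca-1 negative. The orange points lie above the blue ones for every gene shown except Nfkb1 and Cxcl12, where the families overlap.

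Of 25 known NF-kB targets 19 were higher and none lower, with a median of 1.94 against -0.02 for all genes. Leaving out 1 library in turn kept 14 to 21 of them higher, and the Sca-1 positive libraries alone 11. Ptx3 encodes a secreted pattern recognition protein of acute inflammation. It lay at 604, 722, 956 and 1435 CPM in the R60-60 libraries and at 30.9, 19.6 and 30.7 CPM in the letter-coded ones, a difference of 5.18 ± 0.32 (adjusted p = 4.3e-05). No letter-coded library came near the R60-60 range.
Ptgs2, the cyclooxygenase of prostaglandin synthesis, was at 1325 to 2807 CPM against 240 to 450 CPM (2.64 ± 0.24, adjusted p = 0.00027). Irf1, a transcription factor of interferon and TNF responses, was at 320 to 519 CPM against 80.9 to 96.2 CPM (2.11 ± 0.16, adjusted p = 0.00016). Icam1, a leukocyte adhesion molecule named after its values were seen, was at 473 to 653 CPM against 56.7 to 124 CPM and differed by 2.37 ± 0.26 (adjusted p = 0.00069). None of the 3 overlapped between the families.
Saa3, an acute phase protein, reached 101 CPM in B6pos and 5.05 to 13.6 CPM in the other R60-60 libraries, against 0.277 to 0.911 CPM. The difference was 5.67 ± 1.01 (adjusted p = 0.0106), and treating the code as a block ended the call (adjusted p = 0.0907).

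Secreted signals of leukocyte recruitment were higher as well. Of 21 chemokine genes 9 were called higher and none lower, with a median of 1.41. Cxcl2, a neutrophil attractant, lay at 183, 233, 277 and 441 CPM against 6.94, 3.83 and 8.15 CPM (5.60 ± 0.32, adjusted p = 4.3e-05). Cxcl1, its neighbour on chromosome 5 with the same function, was at 3435, 3593, 2534 and 2967 CPM against 570, 787 and 804 CPM (2.10 ± 0.20, adjusted p = 0.00038). For both genes the families were widely separated, and the highest letter-coded library was F2pos.
Cxcl5, another neutrophil attractant, differed by 3.49 ± 0.54 (adjusted p = 0.005). Ccl2, the main monocyte attractant, was at 170 to 348 CPM against 28.3 to 30.8 CPM (2.99 ± 0.24, adjusted p = 0.00019). Ccl7, which acts on the same receptor, was at 266 to 558 CPM against 35.8 to 42.7 CPM (3.36 ± 0.23, adjusted p = 7e-05). Cxcl12, the homeostatic chemokine of stromal cells, overlapped between the families (90 to 179 against 143 to 965 CPM) and was not called, the high value being that of B6pos.

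In the interleukin 6 family 2 of 12 genes were higher, the ligands Il6 and Lif, and none was lower (1 to 3 higher when 1 library was left out). Il6 lay at 704, 858, 1111 and 1670 CPM in the R60-60 libraries and at 125, 63.5 and 79.8 CPM in the letter-coded ones (3.69 ± 0.32, adjusted p = 0.00022). Lif, which signals through the same receptor subunit, was at 19.6 to 38.9 CPM against 6.10 to 15.3 CPM (1.44 ± 0.30, adjusted p = 0.0202). Its adjusted p was 0.0647 without E4neg, 0.0585 without B6neg and 0.0692 without B6pos.
Among 34 other cytokines 4 were higher and none lower, with a median of 0.33, and 1 to 4 were higher when 1 library was left out. Tnfsf9, the ligand of the costimulatory receptor 4-1BB, was at 84.7 to 110 CPM against 22.2 to 31.5 CPM (1.74 ± 0.17, adjusted p = 0.00039). The others, Csf2, Tnfsf8 and Tnfsf11, were at most 10.2 CPM in any library and lost their calls with the code as a block (adjusted p = 0.056, 0.0746 and 0.0916). Single libraries also ended these calls: E4neg or any 1 R60-60 library for Csf2 (up to 0.125), F2pos or B6pos for Tnfsf8 (up to 0.0719), and any library but E4neg for Tnfsf11 (up to 0.128).

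JAK-STAT and interferon-stimulated genes were called in both directions, and complement genes only higher. Of 23 JAK-STAT genes 5 were higher (Socs1, Socs3, Cish, Stat3 and Ptpn2) and Tyk2 was lower, with a median of 0.07. Leaving out 1 library left 2 to 5 of them higher and 0 to 2 lower. Socs3, the feedback inhibitor of Il6 signalling, lay at 1811, 1367, 1620 and 1205 CPM against 399, 762 and 545 CPM (1.31 ± 0.17, adjusted p = 0.0019). Ptpn2, a phosphatase of the JAK kinases, differed by 1.12 ± 0.14 (adjusted p = 0.0017).
Interferon-stimulated genes showed no common direction: 2 of 40 were higher (Irgm1 and Psmb8), 4 were lower (Ifit3, Ifit3b, Xaf1 and Gbp7) and the median was -0.02. Leaving out 1 library left 0 to 2 of them higher and 0 to 7 lower. Irgm1, an interferon-induced GTPase, was higher by 0.84 ± 0.14 (adjusted p = 0.0079, and 0.0565 without E4neg). Gbp7, a guanylate-binding protein, was lower, at 16.2 to 29.7 CPM against 31.4 to 57.3 CPM (-1.0 ± 0.19, adjusted p = 0.0149, and 0.0571 without E4neg).
Complement genes were higher in 7 of 22 cases and lower in none, with a median of 0.92. Fits without 1 library gave 3 (without B6pos) to 7 higher, with 4 without F2pos or B6neg, and medians of 0.67 to 1.11. Cfb, factor B of the alternative pathway, reached 96.0 and 225 CPM in the Sca-1 positive R60-60 libraries against 26.2 and 17.3 CPM in the positive letter-coded ones, and 21.4 and 32.6 CPM in the negative R60-60 libraries against 5.92 CPM in E4neg. The difference with the gate in the model was 2.62 ± 0.35 (adjusted p = 0.0022). C3, the central complement protein, was at 8819 to 12640 CPM against 3914 to 6036 CPM (1.02 ± 0.15, adjusted p = 0.0045), and C4b differed by 1.15 ± 0.21 (adjusted p = 0.0129).

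**Figure D2:**
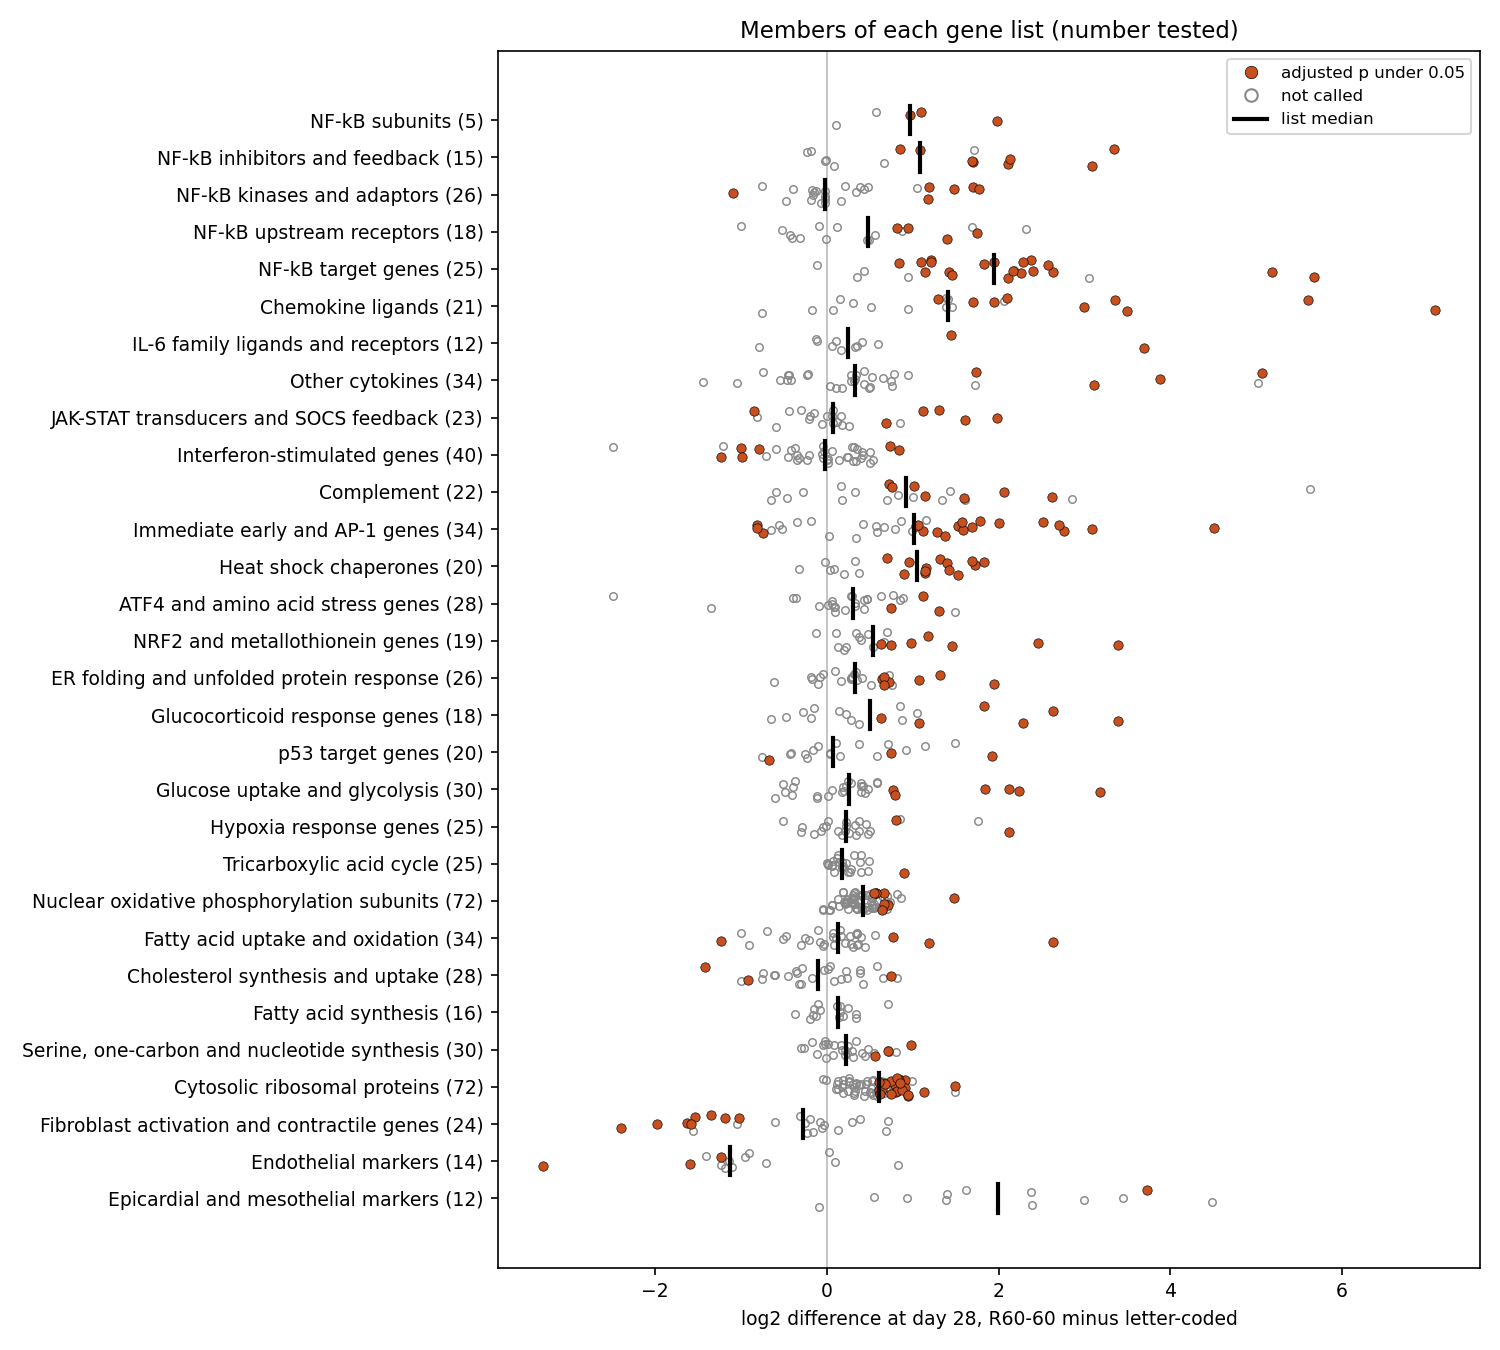
log2 difference at day 28 (R60-60 minus letter-coded) of each tested member of 30 gene lists; filled points passed the edgeR threshold, open points did not, the bar is the list median and the number tested stands after each name. NF-kB targets (median 1.94) and chemokines (1.41) lie to the right of 0, fibroblast activation genes (-0.28) and endothelial markers (-1.13) to the left.

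Stress genes formed another block. Heat shock chaperones were higher in 13 of 20 cases and lower in none, with a median of 1.04. Hspa1a and Hspa1b, near-identical genes of the inducible HSP70 that can share reads, differed by 1.73 ± 0.20 and 1.69 ± 0.18 (adjusted p = 0.0011 and 0.00061). Bag3, a partner of HSP70, was at 700, 577, 501 and 386 CPM against 117, 158 and 159 CPM (1.83 ± 0.21, adjusted p = 0.0011). Hspa5, the chaperone of the endoplasmic reticulum, was at 1752 to 2299 CPM against 746 to 956 CPM (1.31 ± 0.17, adjusted p = 0.0022).
Metallothioneins, small proteins that bind zinc and copper, were among the most changed. Mt2 lay at 2506, 2514, 2317 and 1838 CPM against 126, 271 and 233 CPM (3.39 ± 0.26, adjusted p = 0.00016). Mt1 lay at 1374 to 2822 CPM against 233 to 523 CPM (2.46 ± 0.25, adjusted p = 0.00046). Their list of 19 NRF2 and metallothionein genes had 7 higher and none lower. Hmox1, the heme oxygenase, was one of the 7 (1.45 ± 0.17, adjusted p = 0.00097).
Immediate early and AP-1 genes split. Of 34 tested 16 were higher and 3 lower, with a median of 1.01. The nuclear receptor Nr4a2 was at 202 to 274 CPM against 25.1 to 28.0 CPM (3.09 ± 0.16, adjusted p = 2.9e-05), and Nr4a3 differed by 2.76 ± 0.18, Fosl2 by 2.51 ± 0.22 and Myc by 2.0 ± 0.16 (adjusted p = 5.1e-05, 0.00023 and 0.00016). Fos and Jun, the classical AP-1 pair named after their values were seen, were lower. Fos was at 2138 to 2958 CPM against 3457 to 5184 CPM (-0.75 ± 0.16, adjusted p = 0.0236) and Jun differed by -0.82 ± 0.16 (adjusted p = 0.0152). Both calls were lost in fits without E4neg, B6neg or B6pos (adjusted p up to 0.115 for Fos and 0.0636 for Jun), and that of Fos also without F2pos or B4neg. The other gene called lower, Ctgf, lost its call without E4neg, F2pos, B4neg, B6neg or B6pos (adjusted p up to 0.181) and with the code as a block (0.0607).

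Among metabolic genes, transporters and enzymes of glucose uptake and lactate export and some subunits of the respiratory chain were called higher in the R60-60 libraries. Of 30 genes of glucose uptake and glycolysis 6 were higher and none lower, and the median was 0.26. Leaving out 1 library left 5 to 6 of them higher and 0 to 2 lower. Slc2a1, the basal glucose transporter GLUT1, lay at 119, 86.1, 110 and 82.1 CPM against 14.7, 29.0 and 20.1 CPM (2.13 ± 0.17, adjusted p = 0.00016). Hk2, an inducible hexokinase that traps glucose in the cell, lay at 342, 301, 308 and 308 CPM against 37.6, 23.6 and 46.7 CPM (3.18 ± 0.23, adjusted p = 0.00013). Each R60-60 library exceeded each letter-coded one for both genes.
At the other end of the pathway Ldha, which makes lactate, was at 325 to 359 CPM against 169 to 212 CPM (0.80 ± 0.14, adjusted p = 0.009). The lactate transporters Slc16a1 and Slc16a3 differed by 1.85 ± 0.27 and 2.23 ± 0.37 (adjusted p = 0.0035 and 0.0074). Between these ends Pgk1, named after its values were seen, was higher by 0.77 ± 0.15 (adjusted p = 0.0169), a call lost without E4neg, F2pos, B4pos or B6pos (up to 0.0701). Gapdh, likewise named afterwards, overlapped at 141 to 187 against 124 to 193 CPM (-0.12 ± 0.19, adjusted p = 0.73). Pdk4, a kinase that inhibits pyruvate dehydrogenase, was not called (0.28 ± 0.19, adjusted p = 0.379).

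**Figure D3:**
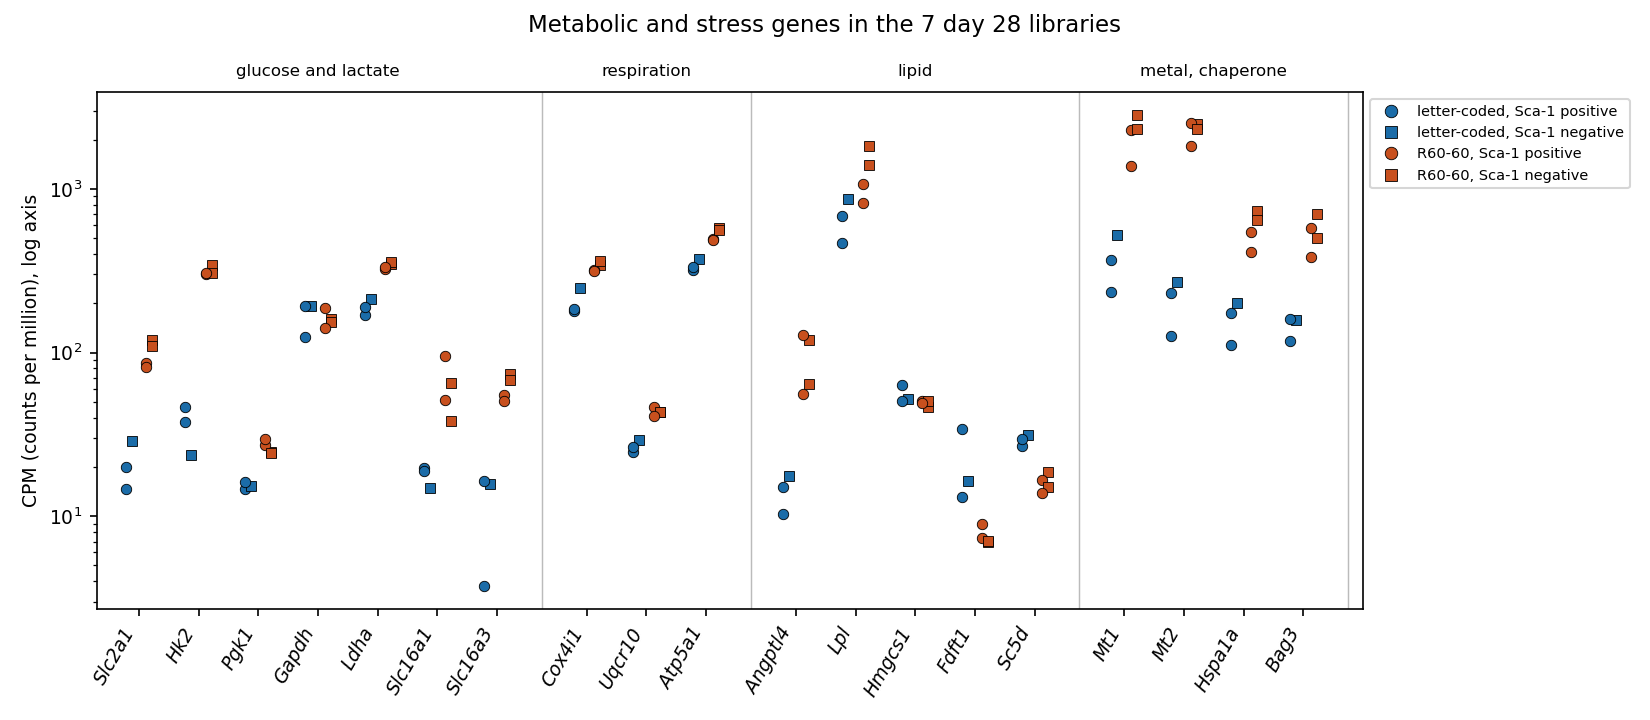
Level of 19 metabolic and stress genes in each of the 7 day 28 libraries, in CPM on a log axis; each point is 1 library, blue for letter-coded and orange for R60-60, circles for Sca-1 positive and squares for Sca-1 negative. Hk2 is at 301 CPM or more in every R60-60 library and at most 46.7 CPM in every letter-coded one, while Gapdh overlaps.

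Of 72 nuclear subunits of oxidative phosphorylation 8 were called higher and none lower. The log2 difference was above 0 for 70 of the 72, with a median of 0.42 (0.32 to 0.58 leaving out 1 library), and the families did not overlap for 38, all with R60-60 higher. The number called was 0 to 13 when 1 library was left out. Cox4i1, of the terminal oxidase, was at 317 to 365 CPM against 181 to 247 CPM (0.66 ± 0.14, adjusted p = 0.021, lost without E4neg, F2pos, B4pos, B6neg or B6pos at up to 0.0821). Atp5a1, a subunit of ATP synthase, was at 490 to 573 CPM against 320 to 374 CPM (0.57 ± 0.13, adjusted p = 0.0294, lost without any 1 library but E2pos at up to 0.106). Of 25 genes of the tricarboxylic acid cycle and reactions beside it only Got1 was called (0.90 ± 0.23, adjusted p = 0.0409). Got1 encodes an aspartate aminotransferase and not an enzyme of the cycle itself. Its call was lost without any 1 library but B6neg (up to 0.128).
Lipid genes had no common direction. Among 34 genes of fatty acid uptake and oxidation 3 were higher (Angptl4, Fabp5 and Lpl) and Cd36 was lower. Angptl4, an inhibitor of lipoprotein lipase, was at 55.6 to 128 CPM against 10.3 to 17.5 CPM (2.63 ± 0.35, adjusted p = 0.0022). Fabp5, Lpl and Cd36 had adjusted p of 0.0397, 0.0414 and 0.0372, and these calls were not stable. That of Fabp5 was lost without any 1 library but B6neg (up to 0.133) and with the code as a block (0.0791). Those of Lpl and Cd36 were lost without E4neg, B4neg, B4pos or B6neg (up to 0.148 and 0.221), that of Lpl also without B6pos and that of Cd36 without E2pos.
Of 28 cholesterol genes 1 was higher, the sterol receptor gene Nr1h3, and 2 were lower. The call of Nr1h3 was lost without E4neg, B4neg, B4pos or B6neg (adjusted p up to 0.113). Sc5d, a late enzyme of cholesterol synthesis, was at 13.9 to 18.7 CPM against 26.9 to 31.4 CPM (-0.92 ± 0.16, adjusted p = 0.0091, and 0.0572 without E4neg). Fdft1, squalene synthase, differed by -1.42 ± 0.30 (adjusted p = 0.0231, 0.0501 with the code as a block, and up to 0.0768 without E4neg or any 1 R60-60 library). Hmgcs1, an early enzyme of the same pathway, was not called (-0.17 ± 0.14, adjusted p = 0.485). None of 16 genes of fatty acid synthesis was called by edgeR with all 7 libraries or by DESeq2. Leaving out 1 library gave 0 to 1 higher and 0 lower. Of the 16, Scd2 had the smallest p with all 7 (-0.37 ± 0.16, edgeR adjusted p = 0.183).
In the list of 28 ATF4 and amino acid genes 3 were higher. Slc3a2, the shared chain of amino acid transporters, was at 162 to 241 CPM against 58.4 to 98.7 CPM (1.30 ± 0.16, adjusted p = 0.0012). Asns, the asparagine synthetase that ATF4 induces, was not called (0.89 ± 0.27, adjusted p = 0.0745). The transporter Slc7a5 had an adjusted p of 0.0096 (0.0553 without E4neg), and Sesn2 one of 0.0409 (0.076 with the code as a block, and up to 0.167 without any 1 library but E2pos).

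Genes outside the NF-kB and metabolic lists with the largest differences included enzymes of the extracellular matrix on the high side and long noncoding RNAs on the low side. Has1, a hyaluronan synthase, lay at 207, 509, 251 and 570 CPM in the R60-60 libraries and at 26.6, 12.3 and 34.0 CPM in the letter-coded ones (4.15 ± 0.18, adjusted p = 1.5e-05). Tnfaip6, which links hyaluronan chains, differed by 3.78 ± 0.36, Adamts4, a protease of aggrecan and versican, by 3.38 ± 0.37 and Rnd1 by 4.37 ± 0.39 (adjusted p = 0.00038, 0.00081 and 0.00023).
Among the 10 genes named for the largest differences in the other direction 3 were long noncoding RNAs. Firre, transcribed from the X chromosome, was at 6.06, 3.35, 4.64 and 5.20 CPM against 31.9, 31.2 and 29.9 CPM (-2.76 ± 0.21, adjusted p = 0.00016). Meg3 and Neat1 differed by -1.88 ± 0.22 and -1.63 ± 0.18 (adjusted p = 0.0012 and 0.00082). Ogt, the enzyme that attaches N-acetylglucosamine to nuclear proteins, and Pnisr, a splicing-related protein, were lower by -1.80 ± 0.22 and -1.78 ± 0.14 (adjusted p = 0.0012 and 0.00016).
Cytosolic ribosomal protein genes were higher in 24 of 72 cases and lower in none (median 0.61), and leaving out 1 library left 8 to 28 of them called. Their summed share of counts was 2.61% ± 0.108 (SD, n = 4) against 1.92% ± 0.382 (SD, n = 3), with an exact two-sided permutation p of 0.0571, the smallest that 4 against 3 libraries can give. Benjamini-Hochberg adjustment over the 3 library measures tested made it 0.171. The other permutation p, unadjusted, were 0.343 for reads outside genes and 0.229 for genes detected. The part of RNA quality in these results was not tested.

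Some genes of the activated fibroblast were lower in the R60-60 libraries. Of 24 activation and contractile genes 8 were lower, none was higher and 16 were not called, with a median of -0.28. Fits without 1 library gave 4 (without E4neg) to 11 (without E2pos) lower, with medians of -0.15 and -0.50. Postn, the periostin of healing scar, lay at 1036, 2211, 1174 and 2495 CPM in the R60-60 libraries and at 8482, 3563 and 5342 CPM in the letter-coded ones (-1.63 ± 0.18, adjusted p = 0.00085). Within each gate the letter-coded libraries were the higher ones. Thbs4, a matrix thrombospondin, and Cilp, a scar matrix protein, both named after their values were seen, differed by -1.54 ± 0.15 and -1.18 ± 0.17 (adjusted p = 0.00046 and 0.0037). Tcf21, a transcription factor of resting cardiac fibroblasts also named afterwards, was higher, at 225 to 278 CPM against 118 to 142 CPM (0.94 ± 0.15, adjusted p = 0.0053). Among 15 cardiac fibroblast markers it was the only one called higher. In that list 1 gene was called lower, and the median was -0.02, as for all genes. Collagens were called lower in 2 of 18 cases (Col8a1 and Col12a1) and higher in none.

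Markers of other cells moved with these differences in some lists, and their part in them was not tested. The 12 epicardial and mesothelial markers summed to 180 to 259 CPM in the R60-60 and 101 to 161 CPM in the letter-coded libraries. Most of that sum came from Aldh1a2 (89.9 to 117 against 47.2 to 80.7 CPM) and Tbx18 (37.2 to 50.5 against 38.7 to 61.9 CPM). The median log2 difference of the 12 was 2.0 (1.18 to 2.54 leaving out 1 library), 11 of them were above 0, and 1 to 3 were called higher in the fits without 1 library. Msln, a defining marker named after its values were seen, was at 2.65 to 15.7 CPM against 0.277 to 1.00 CPM (3.72 ± 0.57, adjusted p = 0.0047), the only one of the 12 called. The 14 endothelial markers summed to 538 to 722 CPM against 609 to 720 CPM. Eng (307 to 521 against 296 to 434 CPM) and Tek (145 to 207 against 101 to 225 CPM) made up most of it. The median log2 difference of the 14 was -1.13 (-1.53 to -0.32 leaving out 1 library), and 3 of them were above 0. Called lower were 3 (Vwf, Cd36 and Pecam1), or 0 to 5 when 1 library was left out. The call of Pecam1 (adjusted p = 0.0494) ended when the code was a block (0.0678) and without any 1 library but B6pos (up to 0.28). The 16 macrophage markers summed to 18.3 to 49.2 CPM against 10.9 to 26.9 CPM, with Cd14 the only one called and none called in some fits without 1 library (0 to 1). The 9 neutrophil markers in the table summed to at most 5.31 CPM in any library. B6pos stood apart in some markers. The sex-linked transcript Xist was at 10.51 CPM there and at most 2.004 CPM in the other day 28 libraries. Ddx3y, a Y chromosome gene, was at 147.2 CPM in B6pos and 79.33 to 143.6 CPM in the others. Ngfr was at 38.58 against at most 1.802 CPM, and Des at 43.31 against at most 10.8 CPM. The cause was not tested. B6pos also held the highest Il6, Cxcl2, Ptx3, Ccl2, Cxcl5 and Saa3, all still called without it. In bulk libraries a smaller number of cells of one type and less RNA per cell cannot be told apart.

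Whether the family difference depended on the gate could hardly be tested with 7 libraries. The test of a change of the family difference between the gates called 0 of 13338 genes (0%) with edgeR, 429 at an unadjusted p under 0.05, and 2 with DESeq2. It rests on a single negative letter-coded library.

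The same split of codes exists in undamaged hearts, where most of these genes lay the other way. There 458 of 13054 genes were higher and 719 lower in the 67-coded than in the letter-coded libraries (3.51% and 5.51%, 9.02% together, edgeR as above), and leaving out 1 library gave 452 to 2021 genes in all. Of the NF-kB targets 16 of 25 were lower and none higher, with a median of -0.99. Tnfaip3 was at 54.4 to 78.7 CPM in the 67-coded and 163 to 225 CPM in the letter-coded libraries (-1.58 ± 0.15, adjusted p = 0.00015), and Il6 at 15.3 to 139 CPM against 311 to 534 CPM (-2.32 ± 0.43, adjusted p = 0.0081). Hk2 was at 24.4 to 93.8 CPM against 144 to 284 CPM (-2.0 ± 0.26, adjusted p = 0.001). Ccl7 was an exception and was not called there (-0.31 ± 0.27, adjusted p = 0.502). For these genes the letter-coded libraries were thus the high ones in undamaged hearts and the low ones at day 28.
Of 12694 genes tested at both times 307 were called at both, 28 with the same and 279 with the opposite direction. Genes called the same way at both times were 2.63% of the day 28 calls and 2.42% of the undamaged calls. The test of the change between times, in 1 fit of the 16 libraries, called 1129 of 14340 genes higher and 678 lower at day 28 (7.87% and 4.73%, 12.6% together). By list it called 22 of the 25 NF-kB targets, 12 chemokines, 15 of the 20 heat shock genes and 15 of the glycolysis genes higher, and 2 glycolysis genes lower. The codes differ between the times (67 and R60-60), and nothing in the labels ties one set to the other.
Oxidative phosphorylation genes had a positive median at both times, but single members differed. In undamaged hearts 11 of its 72 genes were higher and 3 lower in the 67-coded libraries, with a median of 0.37, and Cox4i1 was higher there too (0.68, adjusted p = 0.0417), with a change between times of 0.02 (adjusted p = 0.986). The change between times was called for 8 of these genes, all higher at day 28. One of them was Atp5a1, at -0.14 in undamaged hearts (adjusted p = 0.471), with a change of 0.75 (adjusted p = 0.0066).

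**Figure D4:**
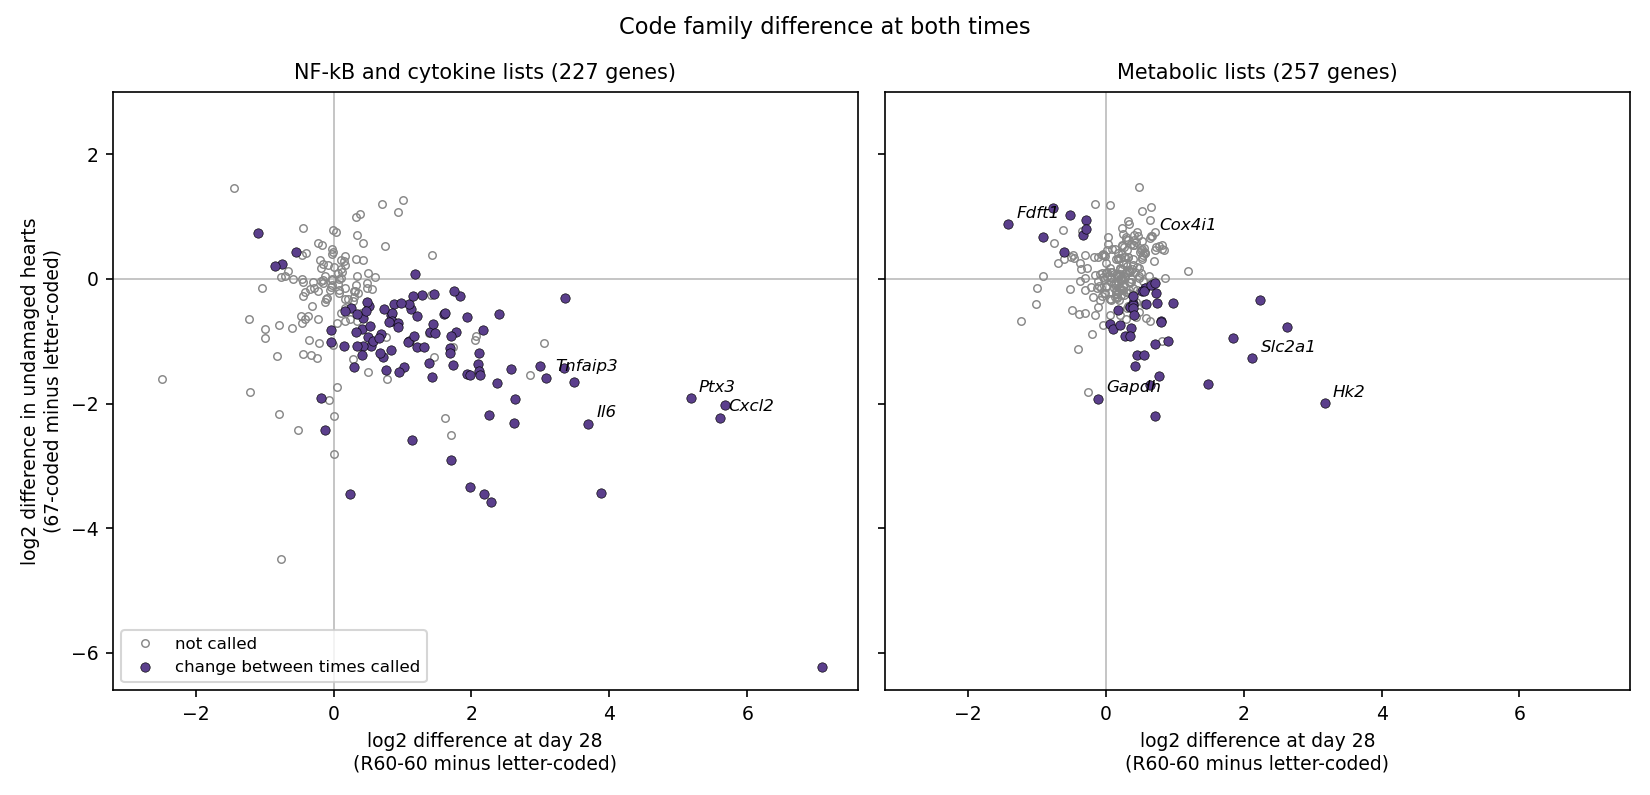
log2 difference between code families in undamaged hearts (67-coded minus letter-coded, vertical axis) against that at day 28 (R60-60 minus letter-coded, horizontal axis) for members of the NF-kB and cytokine lists (left) and the metabolic lists (right); each point is 1 gene tested at both times, filled where the change between the times was called. Il6, Ptx3, Cxcl2, Tnfaip3 and Hk2 lie at the lower right, higher at day 28 and lower in undamaged hearts.

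Set among all 26 libraries, the R60-60 libraries were the highest group for Il6, Cxcl2, Hk2, Slc2a1 and Mt2, but not for every gene named above. Their median for Il6 was 985 CPM, against 381 CPM in the undamaged letter-coded, 79.8 CPM in the day 28 letter-coded and 87.3 CPM in the 4 day 14 libraries. The 4 prefixed day 7 libraries spread from 58.7 to 364 CPM. For Tnfaip3 the order was not as clean: the R60-60 libraries at 334 to 442 CPM overlapped with the prefixed day 7 libraries at 99.7 to 448 CPM. The day 28 letter-coded libraries were at the bottom for Tnfaip3 (37.8 to 50.8 CPM), below each of the other groups. For Mt2 the R60-60 libraries at 1838 to 2514 CPM lay above every other library, the next being at 1288 CPM at day 7. Other genes were higher elsewhere. In the undamaged letter-coded libraries Hspa1b was at 1933 to 3483 CPM and Socs3 at 1558 to 2519 CPM. In the R60-60 libraries Hspa1b was at 666 to 1118 CPM and Socs3 at 1205 to 1811 CPM. Saa3 reached 735 CPM at day 14, above its highest R60-60 value of 101 CPM. These orders are descriptions, since time and code differ together.

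**Figure D5:**
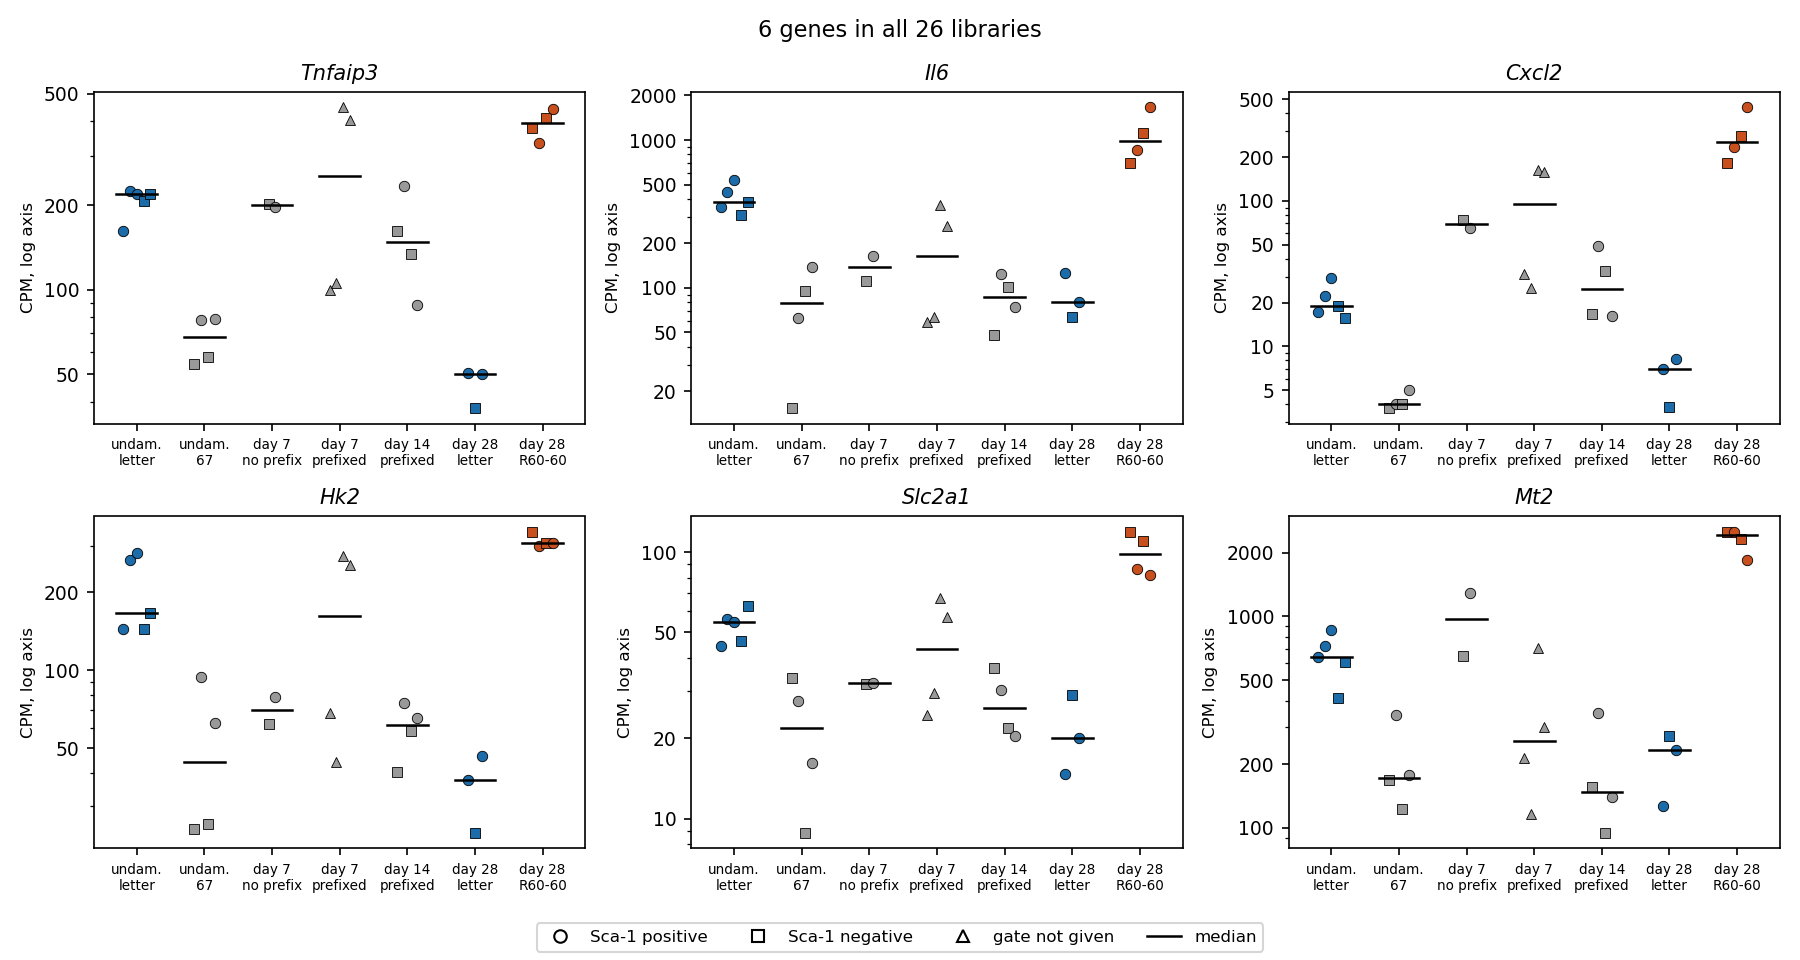
Level of 6 genes in all 26 libraries by time and kind of code, in CPM on a log axis; each point is 1 library, circles Sca-1 positive, squares Sca-1 negative, triangles with no gate in the labels, lines the group medians, blue letter-coded, orange R60-60 and grey the others. The orange points are the highest for Il6, Cxcl2, Hk2, Slc2a1 and Mt2, while for Tnfaip3 day 7 libraries reach 448 CPM.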

How the data were processed

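Bulk RNA sequencing counts per gene were deposited by the authors as whole numbers, in a table of its own for each library. Poly(A) RNA was made into stranded libraries and read as pairs on a NextSeq 500, per the labels' protocols, and bcl2fastq, TopHat, Bowtie2, STAR, Cufflinks and the build mm10 are named in the submitters' processing notes. The counter, its strand setting and the annotation are not given in the sources used here, so a gene and its antisense or overlapping partner may share reads. Each table holds 24421 genes, and 2 entries that name no gene were left out of library totals and tests: reads outside genes (7.18% to 55.8% of a day 28 library) and reads shared between genes (0.129% to 0.433%). Mitochondrially encoded genes were not analysed here.

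Groups were taken from the titles. Genes were filtered by edgeR's filterByExpr, scaled by TMM and tested by the quasi-likelihood test (edgeR 4.0.16, R 4.3.3) with the gate as a term, two-sided, with Benjamini-Hochberg adjustment over all genes tested and a threshold of 0.05. Residual degrees of freedom were 4 at day 28, 6 in undamaged hearts, 10 for the change between times and 3 for the gate. On simulated counts for the day 28 design (13072 genes), 49.5% of changes of log2 1 and 89.9% of log2 2 were recovered, with 18 false calls. Each size was given to 99 genes, and the false calls were a larger share of all calls than the threshold of 0.05. The simulated libraries were drawn independently, so the link between libraries sharing a code was not included. Alternatives were other scaling, no filter, DESeq2 1.42.0, limma-voom (limma 3.58.1), subsets of libraries and the code as a random block. Libraries sharing a code came from both gates and deviated together (r of 0.148 to 0.242 across genes), and their consensus correlation was 0.35. The main tests have no term for the code, which enters only in the alternative with the random block, and its p is given where it ends a call.

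The libraries, gene lists and tests were chosen with earlier results of these data known. Genes named are a fixed set of anchors, up to 10 called genes per direction with the largest difference (families not overlapping, mean log2 CPM no lower than 3), and up to 4 called members with the smallest p per list, or the member with the smallest p where none was called. Others are named as chosen after their values were seen. Called list members given without values complete a count. Promoters are from RefSeq (GRCm38.p6), 250 bases searched and 150 printed. 52 of the 68 NF-kB and cytokine members called higher had a promoter.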

Additional observations from a re-analysis of the deposited data

Results flagged for a closer look

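Reads outside every gene made up 55.8% of the library E2pos, far from the values of the other day 28 libraries. For the genes below, the difference between the code families changed between undamaged hearts and day 28, in the edgeR test of that change over 16 libraries (Benjamini-Hochberg adjusted). Each value is the day 28 difference minus the undamaged difference on the log2 scale. Among NF-kB subunits, inhibitors and adaptors the change was positive for Rela (1.53), Relb (1.39), Rel (3.57), Nfkb2 (1.60), Nfkbia (3.62), Nfkbiz (2.14), Tnfaip3 (4.71), Bcl3 (4.81), Zc3h12a (3.70), Birc3 (2.66), Myd88 (2.37), Ripk1 (2.12) and Map3k8 (2.67). Receptors and targets of the pathway followed with Il17ra (2.27), Tnfrsf12a (1.99), Tnfrsf1a (1.54), Tlr2 (1.68), Ptx3 (7.12), Irf1 (3.33), Ptgs2 (4.60), Saa3 (7.55) and Icam1 (4.07). Among cytokines and chemokines the values were those of Cxcl1 (3.50), Cxcl2 (7.86), Cxcl5 (5.12), Ccl2 (4.43), Ccl7 (3.71), Il6 (6.05), Lif (2.19), Tnfsf9 (3.15), Csf2 (7.50) and Tnfsf8 (6.71); Csf2 and Tnfsf8 are near 0 CPM in several libraries, so their values depend on the prior count.

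Cytokine response and complement genes were Socs3 (2.43), Ptpn2 (1.64), C3 (2.46), Cfb (4.96), C4b (3.77) and Irgm1 (2.02). Stress genes were Mt1 (3.36), Mt2 (5.03), Hmox1 (3.26), Hspa1a (3.46), Hspa1b (2.99), Bag3 (3.57), Hspa5 (2.23), Nr4a2 (3.20), Nr4a3 (3.83), Fosl2 (3.03) and Myc (3.15). Metabolic genes were Hk2 (5.21), Slc2a1 (3.43), Slc16a1 (2.83), Slc16a3 (2.62), Ldha (1.51), Pgk1 (2.36), Gapdh (1.84), Pdk4 (1.22), Got1 (1.93), Atp5a1 (0.75), Angptl4 (3.44), Nr1h3 (1.17), Slc3a2 (1.81) and Slc7a5 (1.79), while Fdft1 (-2.27) and Sc5d (-1.55) changed the other way. Matrix and other genes were Has1 (7.23), Tnfaip6 (5.49), Adamts4 (5.27), Rnd1 (6.74), Tcf21 (1.10) and Ly6a (2.39), and the change was negative for Firre (-4.71), Meg3 (-3.39), Neat1 (-3.32), Ogt (-3.31) and Pnisr (-2.98).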

How the results depend on the processing

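At day 28 the number of genes called was 1075. It was 1722 without the low-count filter, 1694 with DESeq2, 773 in the fit of 20 libraries, 603 without a gate term, 172 in Sca-1 positive libraries alone and 144 with counts summed per code. Chosen after seeing the data, it was 1682 without the 2 libraries with most reads outside genes, and 523 without E2pos and with no gate term. Leaving out 1 library gave 446 to 1397. A limma-voom fit with the code as a random block called 825 genes, and limma-voom without the block called 1163. RLE scaling moved the median of all genes from -0.02 to -0.01. In undamaged hearts 1177 genes were called, 2179 with DESeq2, 113 in Sca-1 positive libraries alone, 726 without a gate term, 340 with counts summed per code, 2122 in the fit of 20 libraries, 989 with the replicate block and 452 to 2021 without 1 library. The change between times gave 1807 genes, 1418 with the replicate block and 1243 to 2400 without 1 library. The gate test gave 0 genes, and 2 with DESeq2. The cause of these shifts was not tested. The share of reads outside genes differed by -13.93 percentage points, with -22.05 to 1.848 without 1 library, the sign turning without E2pos. Ranges were -288.2 to -116.0 for genes detected and 0.562 to 0.913 points for the ribosomal protein share. Of the 87 called genes given with values, 61 were called in all 7 fits without 1 library and 41 in every alternative, and none changed direction. The block ended no other call of these genes than those given above. The mitochondrial share was not run. Differences of log2 1 were recovered in 49.5% of simulated cases, so smaller ones can be missed. The simulation for day 28 also gave 18 false calls, so some of the calls can be false. As given above, 3 counts are 0.171 to 0.442 CPM.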
